A study of Saccharomyces cerevisiae with 24 samples.

Results

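Deletion strains lacking 7 genes of actin cable assembly and cell polarity were followed in a pooled screen of the yeast Saccharomyces cerevisiae: TPM1 (YNL079C), TPM2 (YIL138C), BNI1 (YNL271C), BUD6 (YLR319C), SPA2 (YLL021W), PEA2 (YER149C) and BEM1 (YBR200W). They are taken by gene name, with no measured value in the rule, and are 7 of the 5526 strains that have a barcode probe on the array, with 16 of the 14129 barcode probes. The pool was the YSC1054 collection of BY4742 haploids, each strain with 1 non-essential gene replaced by a cassette that carries 2 short barcodes, the uptag and the downtag. In every group the pool carried a multicopy plasmid, either pYX223, the empty vector, or pYX223-MDM33, in which the GAL1/10 promoter drives MDM33, the gene of a mitochondrial inner membrane protein. Transformants were first selected on glucose, then washed off and plated on selective medium that held 2% glucose (harvest after 2 days) or 2% galactose (harvest after 4 days) at the same temperature, so that sugar and time on the plate cannot be told apart. The 4 groups are empty vector on glucose, empty vector on galactose, MDM33 plasmid on glucose and MDM33 plasmid on galactose, each in 2 experiments (n = 2). Genomic DNA was extracted from each pool, and the barcodes were amplified, labelled and hybridised to arrays, so that the signal of a barcode stands for the abundance of its strain.

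Actin cables are bundles of filaments along which a budding yeast cell moves secretory vesicles, vacuole and mitochondria into the bud. Formins nucleate the filaments at the bud tip and neck, and tropomyosin coats and steadies them. A complex at the growing tip, the polarisome, holds the formin in place, and Cdc42 with its scaffold sets where growth is polarised. TPM1 encodes the major and TPM2 the minor tropomyosin. BNI1 encodes the formin of the bud tip, and BUD6 an actin-binding partner that helps Bni1 to nucleate filaments. SPA2 and PEA2 encode polarisome subunits, and BEM1 encodes the scaffold that links Cdc42 to its exchange factor. The screen rests on the growth arrest of cells that overexpress MDM33, and the comparison asks whether a strain without 1 of these proteins remained visible in the pool on galactose with the MDM33 plasmid.

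Values are scaled intensities in arbitrary units. A strain value is the mean of the strain's uptag and downtag signals in 1 experiment. The detection limit of a channel was the 99th percentile of those probes whose tag carried no label there. A tag was called detected when the ratio of signal to limit, averaged over its dyes and probes, exceeded 1. A tag under the limit in 1 dye could thus be detected. On glucose all 7 strains were detected by at least 1 tag in both experiments, with the empty vector (background over all strains 66.5%) and with the MDM33 plasmid (67.8%). On galactose with the empty vector 6 of the 7 were detected in both experiments (65.8% of all strains), the exception being Δtpm1. On galactose with the MDM33 plasmid only Δtpm2 and Δpea2 were detected in both, 2 of 7 against 39.6% of all strains. Experiment 1 detected 5 of the 7 there (55.5% of all strains) and experiment 2 detected 3 (46.1%). Limits in that group lay between 786 and 3339 units in its channels, and between 176 and 837 units in those of the other groups.

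The tags of a strain did not carry equal signal, and the strain values below rest on the tags named here. Both tags were detected in both experiments on glucose with the empty vector for 4 of the 7 strains, Δtpm1, Δbni1, Δspa2 and Δpea2, against 43.4% of all strains. The Δtpm2 downtag was above the limit in 12 of 12 channels, while its uptag and the mutated form of that uptag were above it in 0 of 12 each. Δbud6 and Δbem1 rested on their uptags, each above the limit in 10 of 12 channels, with the Δbem1 downtag above it in 0 of 12. For Δbni1 the original downtag probe passed in 1 of 12 channels and the probe for a mutated downtag sequence in 8 of 12. Δspa2 and Δpea2 are the strains that both original tags measured at similar heights.

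**Figure D1:**
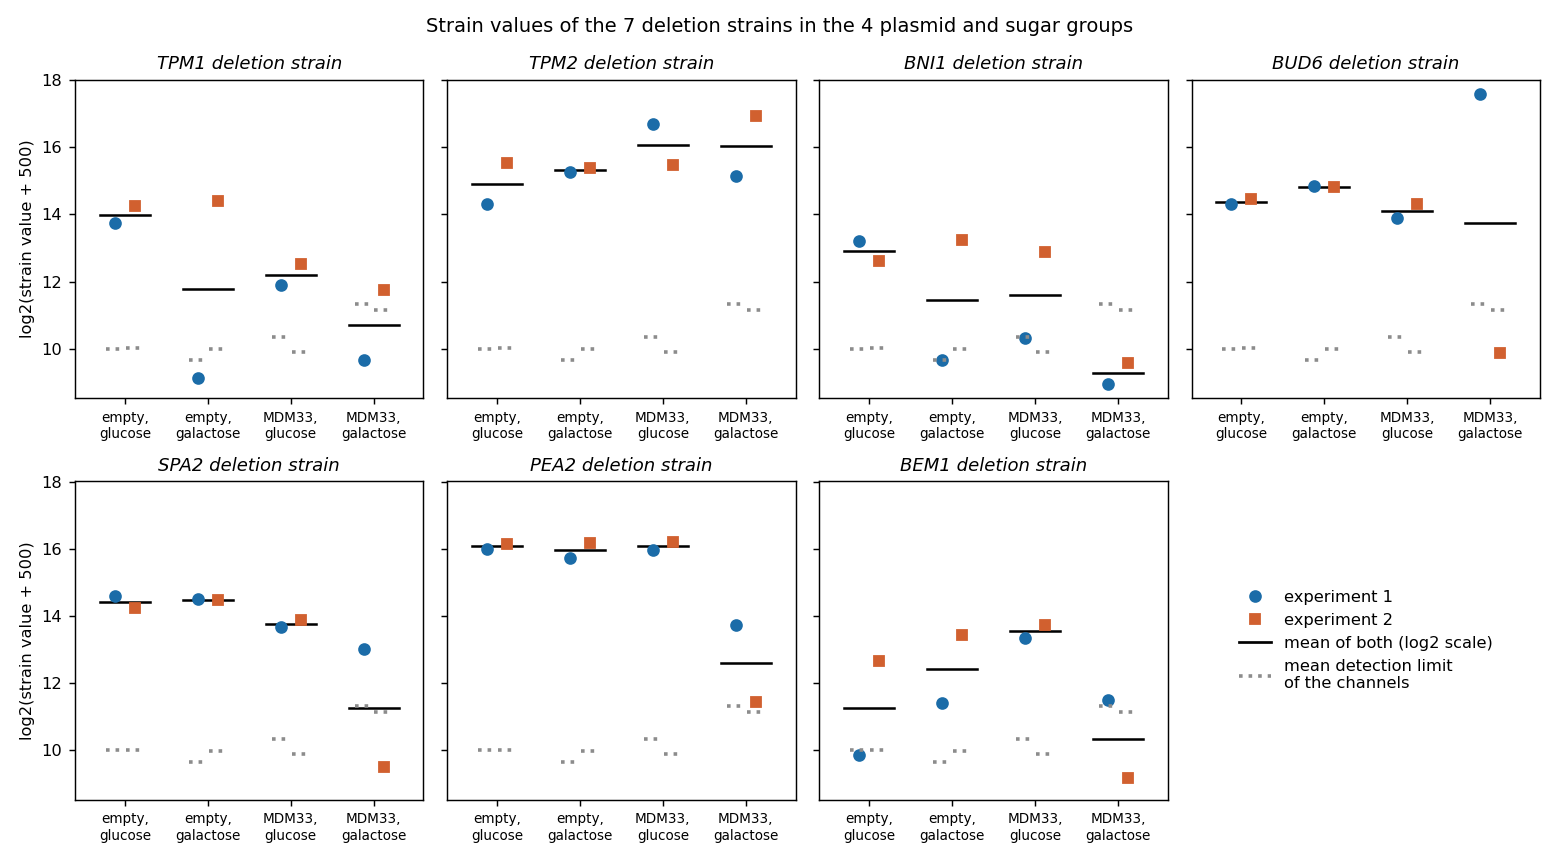
Strain values of the 7 deletion strains on a log2(value + 500) scale, by plasmid and sugar. Circles are experiment 1, squares experiment 2, black lines the mean of both on that scale and dotted lines the mean detection limit of the channels. Δpea2 and Δspa2 lie close together in the first 3 groups and lower on galactose with the MDM33 plasmid, whereas the 2 experiments of Δbud6 lie at 194670 and 445 units there.

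With the empty vector, Δpea2 and Δspa2 had overlapping values on the 2 sugars, while the strains without Tpm1 or Bni1 differed between the experiments. Δpea2 had 64996 and 72345 units on glucose in experiments 1 and 2, and 53697 and 73668 units on galactose. Δspa2 had 24188 and 18708 units on glucose and 22627 and 22211 units on galactose. Δbud6 had 19600 and 21828 units on glucose and 28733 and 28047 units on galactose, higher without overlap, as in 14.3% of all tested strains. It was 1 of the 7 higher in this way, and 0 of the 7 were lower without overlap, against 16.8% of all tested strains.

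Δtpm1 was under the limit on galactose in experiment 1 but not in experiment 2. It had 13190 and 18975 units on glucose with the empty vector, 66.2 units on galactose in experiment 1 and 21021 units on galactose in experiment 2. The galactose value of experiment 1 was thus 0.502% of the glucose value, and that of experiment 2 was 111%. Δbni1 had 8944 and 5761 units on glucose, then 311 units on galactose in experiment 1 (3.48% of glucose) and 9113 units in experiment 2 (158%). On galactose in experiment 1 only its uptag passed the limit, at 597 against 443 units. The strain value of 311 units lay just under the mean limit of 314 units. Δtpm1 and Δbni1 were 2 of the 7 strains with galactose under 10% of glucose in experiment 1, where 9.2% of strains detected on glucose were so low. In experiment 2 it was 0 of the 7, where 4.45% were. In experiment 2 both dyes measured both strains far above the limit on galactose, with 43964 units in Cy3 and 35391 units in Cy5 for the Δtpm1 downtag. Experiment 1 used only Cy5 for glucose and Cy3 for galactose, so that dye and sugar cannot be told apart within it.

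Δbem1 was higher on galactose than on glucose with the empty vector within each experiment, at 437 against 2253 units in experiment 1 and 6000 against 10567 units in experiment 2. The experiments differed more than the sugars did, and the groups overlapped. Δtpm2 had 19651 and 46798 units on glucose and 38687 and 41797 units on galactose, which overlapped as well.

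A fit across all 4041 strains above the limit on average (limma with Benjamini-Hochberg adjustment), in which all 7 strains could be tested, placed none of them past the threshold of 0.05 for galactose against glucose with the empty vector. The background was 0% of all tested strains, and 77 strains had an unadjusted p below the threshold. The log2 difference was -2.23 for Δtpm1 (95% interval -6.00 to 1.55), -1.46 for Δbni1 (-4.58 to 1.66) and 1.16 for Δbem1 (-1.81 to 4.13), each with an adjusted p of 0.9995. Without experiment 1 of the empty vector on galactose the first 2 of these turned to 0.40 and 0.32.

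On galactose with the MDM33 plasmid Δpea2 and Δspa2 were at their lowest. Δpea2 had 63001 and 75056 units on glucose with this plasmid and 13258 and 2302 units on galactose, the mean going from 69029 ± 8524 to 7780 ± 7747 (SD, n = 2). Galactose amounted to 21.0% of glucose in experiment 1 and 3.07% in experiment 2. Δspa2 had 12442 and 14490 units on glucose and 7885 and 223 units on galactose, or 63.4% and 1.54%. In both strains the galactose values lay below both glucose values, and both tags were above their limits in experiment 1. In experiment 2 neither Δspa2 tag was above the limit. The Δpea2 uptag read 8204 units in Cy5 and 692 units in Cy3, the latter under its limit. Its downtag read 0 units in Cy5 and 313 units in Cy3, both under the limit.

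Δbem1 was also lower on galactose in both experiments with this plasmid. It had 9864 and 13243 units on glucose and 2378 and 80.0 units on galactose, the last value under the limit. Δbni1 had 790 and 7057 units on glucose, and on galactose it was listed at 0 in experiment 1 and had 264 units in experiment 2, both under the limit. In experiment 1 the mean limit on galactose, 2063 units, exceeded the glucose value of Δbni1, so that no direction can be given there. Since Δbni1 was not above the detection limit in either experiment, only a bound can be given for it, with the limit in place of its values. Averaged over both experiments on the log2(value + 500) scale, glucose with the MDM33 plasmid was at least 1.29-fold higher. Galactose with the empty vector was at least 1.16-fold higher. Both bounds rest on experiment 2, since in experiment 1 the limit exceeded the value of the brighter group as well. The fitted difference of Δbni1 given below is no such bound.

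The tropomyosin strains and Δbud6 followed no common course on galactose with the MDM33 plasmid. Δtpm2 was the strain most clearly present, at 35391 and 123684 units against 105241 and 44643 units on glucose, so that it was at 33.6% of glucose in experiment 1 and 277% in experiment 2. Its downtag read 70522 units in experiment 1 and 239908 and 254045 units in Cy3 and Cy5 of experiment 2. Δtpm1 had 3344 and 5338 units on glucose and 321 and 2971 units on galactose, with experiment 1 under the limit. The value of experiment 2 came from 1 dye, since its downtag read 10881 units in Cy5 and 381 units in Cy3, the latter under the limit. Δbud6 had 14603 and 19877 units on glucose, and on galactose 194670 units in experiment 1 and 445 units in experiment 2. The Δbud6 uptag read 385760 units in experiment 1 and, in experiment 2, 1541 units in Cy3 and 0 in Cy5, both under the limit.

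**Figure D2:**
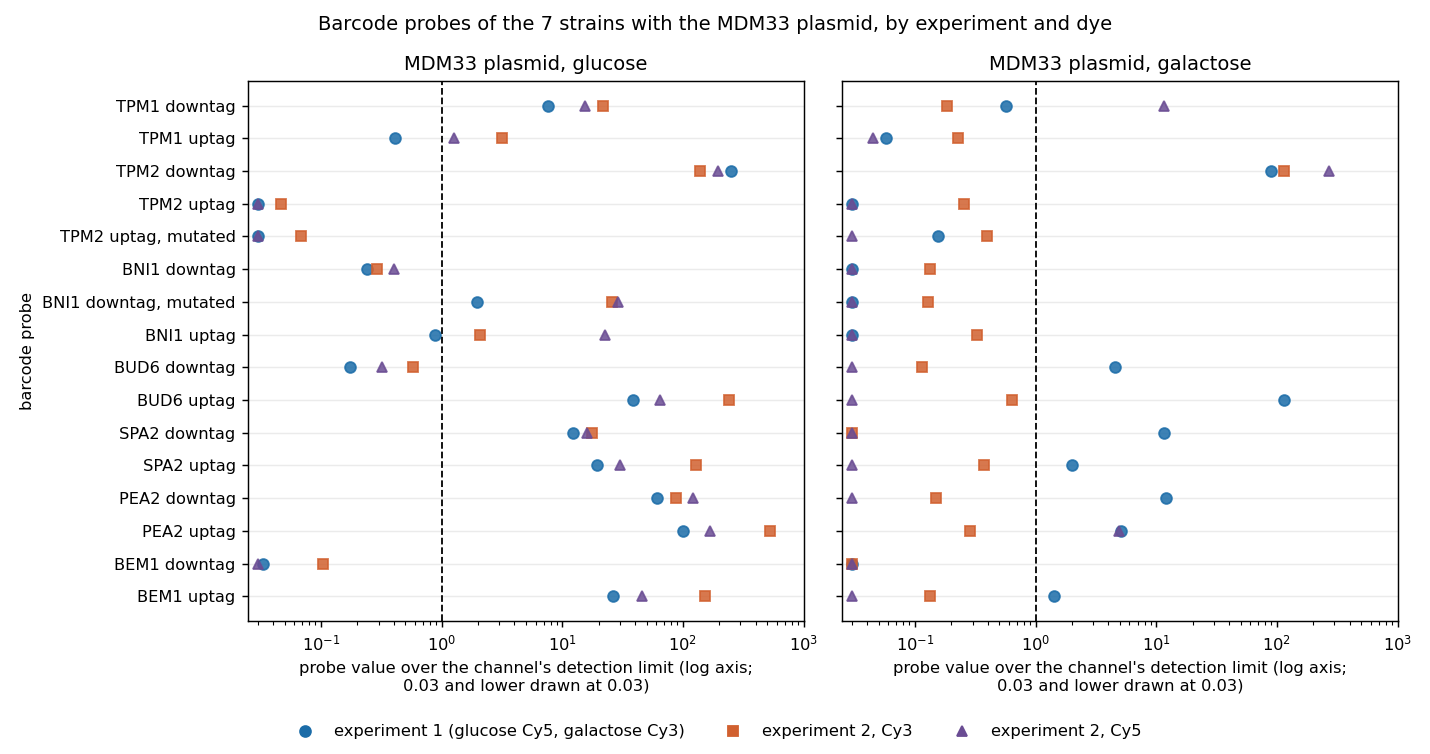
Signal of each of the 16 barcode probes over the detection limit of its channel, with the MDM33 plasmid on glucose (left) and on galactose (right), on a log axis. Circles are experiment 1, squares and triangles the Cy3 and Cy5 channels of experiment 2, and the dashed line is the limit. On galactose the Δtpm2 downtag is the only probe right of the line in all 3 channels, and the Δbud6 uptag is right of it in experiment 1 alone.

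Counted by the values as listed, 5 of the 7 strains were lower on galactose than on glucose without overlap with the MDM33 plasmid (58.8% of all tested strains were), all but Δtpm2 and Δbud6, and 0 of 7 were higher without overlap (4.26%). The place of Δbni1 among the 5 rests on values under the limit. The listed galactose value was under 10% of glucose for Δtpm1 and Δbni1 in experiment 1, 2 of 7 against 16.5% of strains detected on glucose. Both values were under the limit, which itself stood at 61.7% of glucose for Δtpm1 and at 261% for Δbni1, so that neither share is known to be under 10%. In experiment 2 it was so for Δbni1, Δbud6, Δspa2, Δpea2 and Δbem1, 5 of 7 against 42.2%. Of these Δpea2 was detected, by its uptag in Cy5 alone, and for Δbud6 the limit stood at 8.93% of glucose. For Δspa2, Δbem1 and Δbni1 it stood at 12.2%, 13.4% and 25.1%, so that a share under 10% is not shown for them.

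In the fit 0 of the 7 strains passed the test for galactose against glucose with the MDM33 plasmid, as did 0% of all tested strains, although 1542 of the 4041 had an unadjusted p below the threshold. The median log2 difference of all tested strains was -1.92, and that of the 7 strains was -2.34. Δpea2 had the largest difference among the 7, -3.48 (95% interval -5.62 to -1.34, adjusted p = 0.0614), with 11.4% of tested strains below it. Δbem1 followed with -3.21 (-6.18 to -0.24, adjusted p = 0.112), then Δspa2 with -2.50 (-5.17 to 0.17, adjusted p = 0.151) and Δbni1 with -2.34 (-5.46 to 0.78, adjusted p = 0.228). These 4 kept a negative sign in every alternative that was run for them. The differences of -1.49 for Δtpm1, -0.37 for Δbud6 and -0.05 for Δtpm2 did not, and turned positive when channels were scaled to the 75th percentile of their probes in place of a common total, which moved the median of all tested strains as well, to -0.06 with the probes of both tags and to 0.47 with those of the labelled tag. Measured from the median of all strains, Δpea2 stood at -1.56 and Δbem1 at -1.29, whereas Δtpm2 stood at 1.87, Δbud6 at 1.55 and Δtpm1 at 0.43. Δspa2 and Δbni1 lay nearer to the median, at -0.58 and -0.42, with 34.2% and 38.6% of tested strains below them. From that median Δpea2 and Δbem1 were lower and Δbud6 higher under all 3 other scalings. From it Δtpm1 stood at -0.098 with the labelled tag and Δtpm2 at -0.031 under quantile normalization, and both were higher under the other 2.

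The Δpea2 call depended on the settings. With a larger offset before the logarithm, with the mean of log2 tag values or with no filter on low strains, its adjusted p was between 0.0405 and 0.0470. Without experiment 1 of the MDM33 plasmid on galactose, 4 of the 7 strains were called lower, namely Δpea2, Δspa2, Δbud6 and Δbem1, and 1806 of all tested strains were called. Without experiment 2 of that group Δbud6 was called higher and Δpea2 lower, and 728 of all tested strains were called. Such a fit leaves 1 sample in the group, which is then assumed to vary like the other groups, whereas the experiments of this group differed most.

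**Figure D3:**
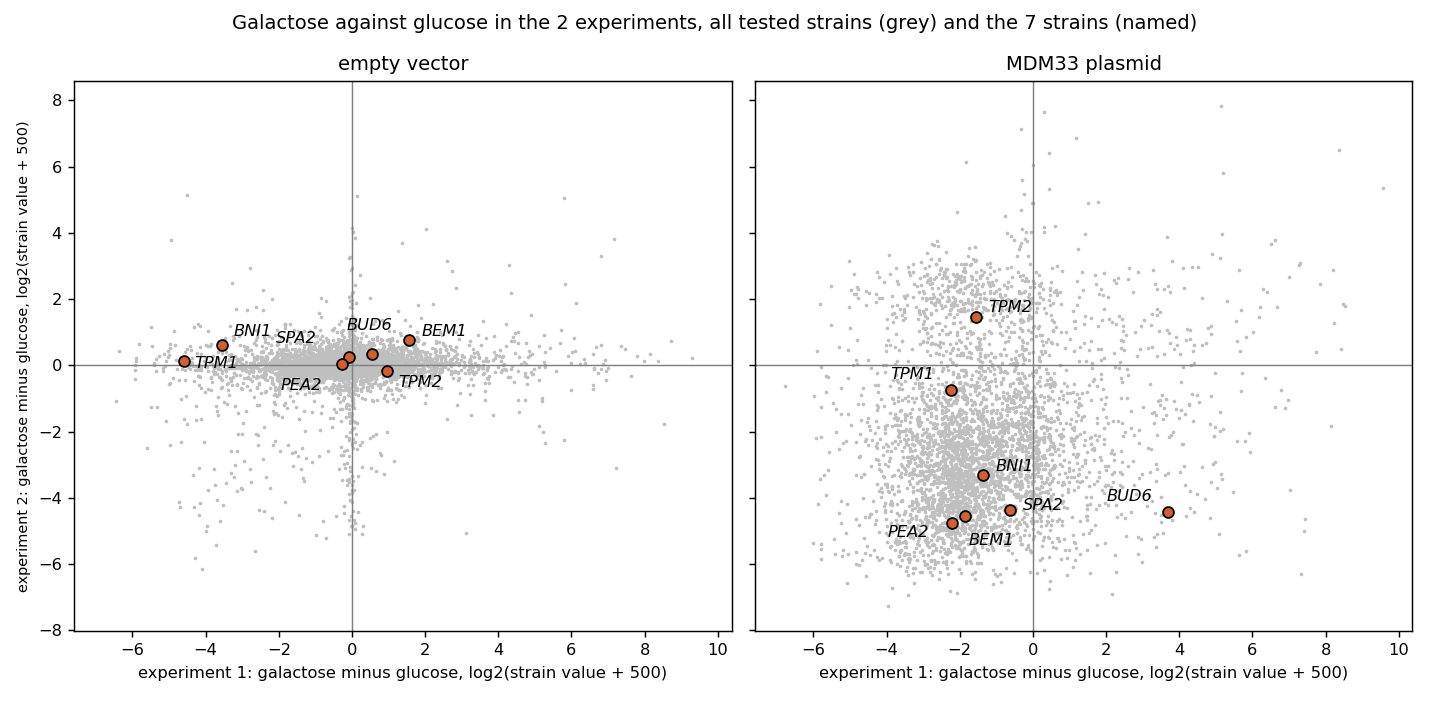
Galactose minus glucose on the log2(value + 500) scale in experiment 1 (x axis) and experiment 2 (y axis) for all 4041 tested strains (grey) and the 7 strains (named), with the empty vector (left) and the MDM33 plasmid (right). With the empty vector Δtpm1 and Δbni1 lie far left, at -4.60 and -3.54 in experiment 1, and at 0.14 and 0.62 in experiment 2. With the MDM33 plasmid 4 of the 7 lie between -3.31 and -4.75 in experiment 2 and are negative in experiment 1, and Δbud6 lies at 3.69 and -4.43.

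The plasmids were then compared directly on galactose. The values of Δpea2 (53697 and 73668 units with the empty vector against 13258 and 2302 units with the MDM33 plasmid), Δspa2 (22627 and 22211 against 7885 and 223 units) and Δbni1 did not overlap, the values of Δbni1 with the MDM33 plasmid being under the limit. These were 3 of 7 strains lower without overlap, against 51.2% of all tested strains, and 0 of 7 were higher without overlap, against 5.44%. Δbem1 had 2253 and 2378 units in experiment 1 and 10567 and 80.0 units in experiment 2, so that only the second experiment put it lower with the MDM33 plasmid. Δtpm1 was higher with the MDM33 plasmid in experiment 1, where both of its values were under the limit, and lower in experiment 2.

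In the fit 0 of 7 strains passed the test in this comparison, against 11.5% of all tested strains, 12 higher and 453 lower. The median difference over all tested strains was -1.63 and over the 7 strains -2.10. Δpea2 lay nearest to the threshold with -3.35 (95% interval -5.49 to -1.21, adjusted p = 0.0540), followed by Δspa2 with -3.22 (-5.89 to -0.55, adjusted p = 0.0929). Δbni1 had -2.18 and Δbem1 -2.10, with adjusted p of 0.287 and 0.281. These 4 were negative in every alternative run for them. Δbud6 (-1.09) and Δtpm1 (-1.05) turned positive under quantile normalization and under scaling to the 75th percentile of the labelled tag, which moved the median of all tested strains to 0.04 and 0.69. Measured from the median they stood 0.54 and 0.58 higher with the deposited scaling and also higher under these 2. With the 75th percentile over both tags Δbud6 stood at -0.18 from the median, thus lower, and Δtpm1 at 1.64. The only positive difference, 0.71 for Δtpm2, turned to -0.18 without experiment 2 of the MDM33 plasmid on galactose. Δpea2 was called lower under the same 3 settings as above, with adjusted p between 0.0396 and 0.0462. Without experiment 1 of the MDM33 plasmid on galactose, which leaves 1 sample in that group, Δspa2 stood at -4.99, Δbud6 at -4.93 and Δpea2 at -4.50. Without experiment 2 of that group, which also leaves 1 sample, Δbud6 stood at 2.76.

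**Figure D4:**
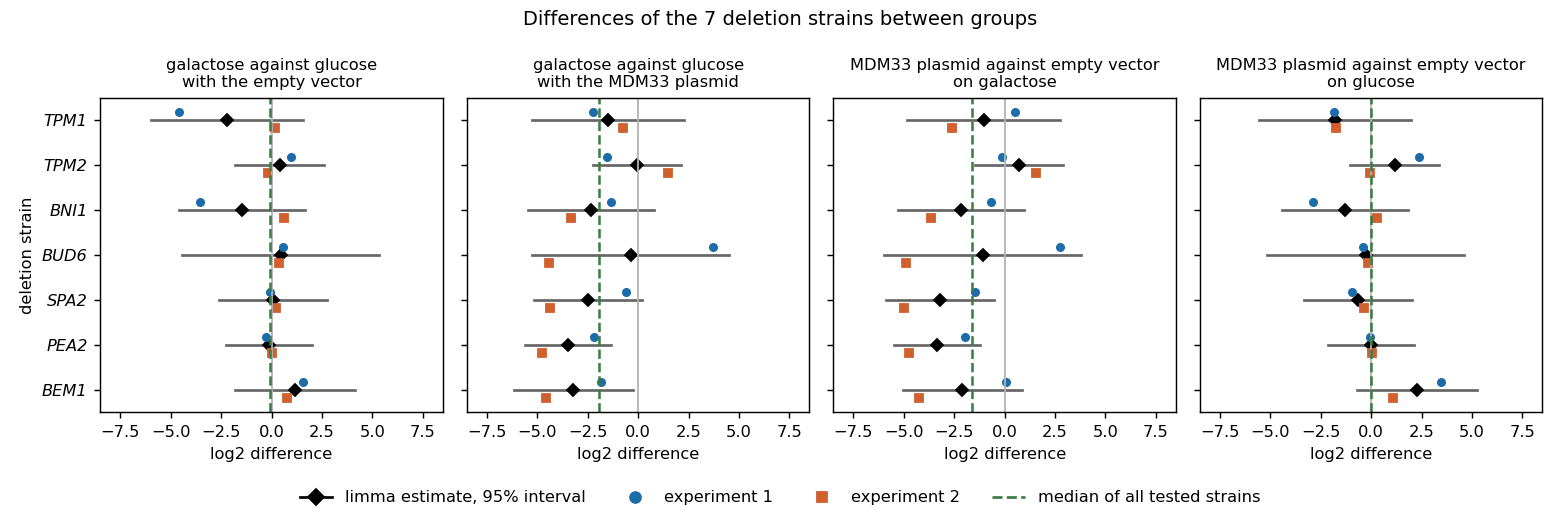
Log2 differences of the 7 strains in the 4 pairwise comparisons. Diamonds with bars are the fitted values with their 95% intervals, circles and squares the differences within experiments 1 and 2, and the dashed line the median of all tested strains. On galactose the interval of Δpea2 ends at -1.21 and that of Δspa2 at -0.55, while the experiments of Δbud6 fall on opposite sides of 0. The intervals rest on a spread pooled over all groups. The experiments of Δspa2 lay 3.54 apart on galactose with the MDM33 plasmid and 0.03 to 0.36 apart in the other groups. Intervals that involve the former group can thus be too narrow.

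On glucose, where the GAL1/10 promoter is repressed, the plasmids were compared as a background. Here 0 of 7 strains passed the test, and 0% of all tested strains, with 41 strains at an unadjusted p below the threshold. Δpea2 had 64996 and 72345 units with the empty vector and 63001 and 75056 units with the MDM33 plasmid, which overlapped. Δbem1 was higher with the MDM33 plasmid in both experiments, at 9864 against 437 units and at 13243 against 6000 units, a log2 difference of 2.27 (95% interval -0.69 to 5.24). Δtpm1 was lower with it in both, at 3344 against 13190 units and 5338 against 18975 units, a difference of -1.79 (-5.56 to 1.99). Both kept their sign in every alternative run, and in both the adjusted p was 1.00. Δspa2 was lower with the MDM33 plasmid as well, at 12442 against 24188 units and 14490 against 18708 units. Its log2 difference was -0.64 (95% interval -3.32 to 2.03), with 15.9% of tested strains below it. Each plasmid was a separate transformation of the pool, so that these differences are between transformations as well as between plasmids.

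The interaction of plasmid and sugar asks whether galactose against glucose differed between the plasmids. It called 0 of 7 strains and 0% of all tested strains, with 764 strains at an unadjusted p below the threshold and a median of -1.68 over all tested strains. Δbem1 had -4.37 (95% interval -8.57 to -0.17, adjusted p = 0.252), with 5.89% of tested strains below it, and Δpea2 had -3.36 (-6.39 to -0.33, adjusted p = 0.241). For Δtpm1 the value was 0.74 (-4.60 to 6.07), which changed sign under 3 alternatives. Without experiment 1 of the MDM33 plasmid on galactose, again with 1 sample left there, 3 of the 7 strains, Δpea2, Δspa2 and Δbud6, were called, all lower, with 921 of all tested strains.

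Over the 8 values of a strain, which share arrays, channels and transformations, Δspa2 and Δpea2 were the most alike of the 21 pairs, with a Pearson correlation of 0.95 on the log2(value + 500) scale. Δtpm1 and Δbni1 came next with 0.88. The remaining pairs lay lower, and Δtpm2 had negative correlations with 5 of the other 6, down to -0.70 with Δspa2. The strain whose 8 values were most like those of Δpea2 among all tested strains was Δodc1 (0.999), and for Δbni1 it was Δscs7 (0.992). Δtpm2 had the least close match of the 7, Δkar4 (0.91). These are descriptions of 8 points that 1 group with low values spreads out.

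Strains for 51 further genes of the same pathways were looked up in 6 lists, and 41 of them could be tested. On galactose between the plasmids 1 was called higher and 3 lower, 4 of 41 or 9.76% against 11.5% of all tested strains, with a median of -2.13. Among formin genes, Δbnr1, which lacks the formin of the bud neck, was called lower (-3.71, adjusted p = 0.0482; 0.0510 with the experiment as a replicate block), with 38681 and 32670 units with the empty vector and 5768 and 708 units with the MDM33 plasmid. The same list holds Δkel1 (-4.48, adjusted p = 0.0378), which lacks a kelch protein that acts on formins, and Δbud14 (7.81, adjusted p = 0.0365), which lacks a formin regulator and phosphatase subunit. With the empty vector Δbud14 was at 0 and 9338 units on galactose, and with the MDM33 plasmid at 973382 and 254061 units. In the list of Cdc42 and Rab regulators 1 of 14 was called, Δste20, which lacks a kinase that binds Cdc42 (-4.96, adjusted p = 0.0393).

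The other lists held no call in any of the 5 comparisons. For actin binding and turnover 6 of 12 strains could be tested, with a median of -1.10 on galactose between the plasmids, for myosin V cargo and bud transport 5 of 7 (-1.84) and for bud site selection 10 of 10 on the array (-1.60). Of the N-terminal acetylase NatB, which modifies tropomyosin, only Δmdm20 could be tested (-0.77). Δmdm20 was listed at 0 in experiment 1 both on glucose with the empty vector and on galactose with the MDM33 plasmid.

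Several properties of the libraries bear on all values on galactose with the MDM33 plasmid. The 10 highest strains held 11.5% and 5.50% of the summed strain values there, against 0.876% to 1.94% in the other groups, while every channel had been scaled to nearly the same total. The median absolute log2 difference between the experiments was 1.74 over all tested strains in this group and 0.63 to 0.75 in the others. In experiment 2, 39.6% of uptag probes and 36.5% of downtag probes above the limit in either dye were above it in 1 dye only, against 3.98% to 9.09% in the other groups. Their part in the results was not tested. As a check of the labels, 3 strains that lack enzymes of galactose use were looked at with the empty vector. Δgal1 had 23336 and 24919 units on glucose and 1689 and 1646 units on galactose, and Δgal7 had 4798 and 18682 units on glucose and 171 and 5225 units on galactose. Δgal10, near the limit on both sugars, had 75.1 and 1350 units on glucose and 135 and 58.5 units on galactose.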

How the data were processed

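The deposited values are linear intensities that the authors measured with ArrayVision, corrected for local background and scaled to a common total in each of the 24 dye channels; the 24 columns of unscaled values were not used. Of 14767 annotated probes 14740 had a value. The labels gave each channel's plasmid, sugar, experiment, tag and dye. Per channel the probes of the labelled tag (original and mutated sequence) were averaged per strain, then dyes, then tags. Strains whose mean over the 8 values exceeded the mean limit (872 units) were fitted as log2(value + 500) in 1 model of 4 group means with limma 3.58.1 in R 4.3.3 (4 residual degrees of freedom), with Benjamini-Hochberg adjustment over all 4041 strains. The spread was pooled over all groups, although the experiments differed most on galactose with the MDM33 plasmid. Intervals and p-values that involve this group can thus understate its spread. The offset makes differences of low strains too small. Experiments are separate transformations of 1 pool, and 2 per group limit the precision. Depth has no counterpart on arrays.

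The named strains are the 7 members, list strains past the test, the NatB strain and 3 galactose-use strains, and the strains most like a member. The rule for the members uses no measured value, but members and lists were chosen with earlier results of these data known. The experiment number pairs the samples, since per the design each transformation was plated on both sugars, and deviations of same-numbered samples correlated at 0.06 to 0.32. Alternatives covered scaling, offset, filter, tags, probes, dyes, background, weights, a replicate block and leaving out each replicate. The fit was tested on simulated data in which each strain had the same spread in every group and most strains had no difference. That test does not cover the larger spread and the shifted median on galactose with the MDM33 plasmid. Gene names are those of RefSeq assembly R64, which matched 5086 of 5526 strains. Barcode sequences and genome coordinates were not used here.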

Additional observations from a re-analysis of the deposited data

Results flagged for a closer look

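The Δbem1 strain was flagged because its 2 experiments with the empty vector and its 2 experiments with the MDM33 plasmid moved in opposite directions. From glucose to galactose its log2 difference was 1.56 and 0.77 with the empty vector and -1.85 and -4.57 with the MDM33 plasmid. Other tested strains did so too, such as the YBL010C deletion (3.30 and 0.49, then -2.49 and -1.98) and the YBL088C deletion (0.44 and 0.32, then -2.30 and -2.40). How many did so was not counted, so the pattern is not shown to be particular to Δbem1. The median difference of all tested strains was -0.08 with the empty vector and -1.92 with the MDM33 plasmid. The interaction of Δbem1 was -4.37 (limma, adjusted p = 0.252), so the difference did not pass the test. All of this signal came from the uptag, since its downtag was under the limit in every channel, and the value on glucose with the empty vector in experiment 1 was 437 units, the lowest of the 4 groups in that experiment. Without that value galactose against glucose with the empty vector turned from 1.16 to -0.24.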

How the results depend on the processing

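The 22 log2 differences of single strains were recomputed under up to 23 alternatives, which gave 489 values: 446 kept their direction and side of the threshold, 15 passed the threshold that the reported value missed, and 28 changed sign, in 10 of the 22 differences. Of the 28, 13 arose under the 3 other scalings, which moved the median of all tested strains too. None of the 7 strains was called for galactose against glucose with the empty vector or for the plasmids on glucose under any alternative (0 to 0 without single replicates). Without single replicates, which leaves 1 sample in a group that is assumed to vary like the others, the number called was 0 to 4 for galactose against glucose with the MDM33 plasmid, 0 to 3 for the plasmids on galactose and 0 to 3 for the interaction. It was 1 in each of the first 2 of these under the mean of log2 tag values, no filter and an offset of 2000. With the experiment number as a replicate block 0 of the 7 strains were called in any comparison and 317 of all tested strains on galactose between plasmids, and it changed no call of the 7 strains. Of the 4 list strains called, Δbnr1 missed the threshold with the block and 3 passed it. The cause of the changes in this section was not tested.

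For galactose against glucose with the MDM33 plasmid, channels set to the 75th percentile over both tags gave 0.67 for Δtpm1, 2.51 for Δtpm2 and 0.72 for Δbud6, to that of the labelled tag 0.38, 2.34 and 2.02, and quantile normalization 1.16 for Δtpm1 and 1.29 for Δbud6. Mean log2 tag values gave 0.33 for Δtpm2 and 0.28 for Δbud6, and an offset of 2000 gave 0.20 for Δbud6. Without single replicates Δtpm2 ran from -0.94 to 0.85 and Δbud6 from -4.21 to 3.48. For the plasmids on galactose they ran from -3.67 to 1.58 (Δtpm1), -0.18 to 1.61 (Δtpm2) and -4.93 to 2.76 (Δbud6), and with the empty vector on galactose against glucose from -4.85 to 0.40 (Δtpm1), -3.24 to 0.32 (Δbni1) and -0.24 to 2.56 (Δbem1). For the plasmids on galactose, Δtpm1 was 1.15, 0.94 and 0.56 under the 3 scalings, and Δbud6 was 1.09 and 0.43 under the last 2. The Δtpm1 interaction ran from -1.89 to 3.36 without single replicates and was -0.081 with the dyes of experiment 1 only.

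The count over all tested strains on galactose between plasmids, 465, was 0 with uptags only, array weights, quantile normalization or without any single replicate of the other 3 groups, and 4 and 13, all higher, under the 75th percentile scalings. It was 167 with an offset of 100 and 743 with no filter. For galactose against glucose with the MDM33 plasmid the count of 0 became 19 and 54, all higher, under those scalings, and 405 to 658 with downtags only, mean log2 tag values, an offset of 2000 or no filter.

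Detection of the 7 strains in both experiments went from 7, 6, 7 and 2 to 4, 2, 2 and 0 when both tags had to pass (empty vector on glucose and galactose, then MDM33 plasmid), and to 1 in the last group with the stricter of the percentile limits tried.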
